A study of Mus musculus with 192 samples.

Results

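Temporal bone (TpB) was sequenced from WT mice that had lived on the International Space Station for about a month (FL_WT, 6 mice) and from WT mice kept in the same kind of cage on the ground (GC_WT, 6 mice). These 12 libraries were chosen by their labels for tissue, genotype and condition, out of 24 TpB libraries and 192 libraries from 9 tissues. All mice were male mice labelled C57BL/6 (C57BL/6J in the methods of the study), 12 weeks old by the labels and housed singly, and each library is 1 mouse. The methods give 12 weeks as the age at which flight mice were ready for transport, so they were older when dissected. The flight mice were dissected after landing and behavioural tests in the United States, and the ground mice months later in Japan. Flight, return, site and date of dissection therefore cannot be told apart. By the methods, flight mice were moved to a flight food before launch, and CRF-1 is the food named for ground mice. Any difference in food cannot be told apart from flight either. The Nrf2-KO mice of the same tissue (Nfe2l2 knockout, 5 FL_KO and 6 GC_KO in the fit) shared the estimate of the spread, and their values are given beside some results. WT mandibular bone (MdB, 6 libraries) is given in the same way.

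The temporal bone is the part of the skull that encloses the inner and middle ear. Its otic capsule is a dense bone that is hardly remodelled in adult life, while its outer parts hold marrow and carry muscle, fat and glands of the head and neck. In bone, osteoblasts lay down matrix, osteocytes are osteoblasts buried in that matrix that sense load and secrete hormones, and osteoclasts dissolve matrix with acid and proteases. Oxidative phosphorylation (OXPHOS) is carried out by the respiratory complexes and the ATP synthase of the inner mitochondrial membrane, whose subunits are encoded by nuclear genes and by mitochondrial DNA. It is densest in muscle, brown fat and other cells with a high demand for ATP.

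FL_WT libraries held 13483678 to 14686889 expected counts and GC_WT libraries 14316935 to 15088482, with 16440 to 17424 genes above 1 TPM (transcripts scaled to a fixed total in each library). Library numbers fell in 2 separate ranges, with 3 FL_WT and 3 GC_WT mice in each. Range 1 held mice 03, 05 and 06 of both groups, and range 2 held mice 07, 08 and 10. Between the ranges, over the same 12 libraries, 10 genes were called at an adjusted p under 0.05 in edgeR and 5260 of 17205 genes had an unadjusted p under 0.05. Medians of most lists below are therefore also given within each range.

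The tissue carried the markers of its label. Coch, which encodes cochlin, the main secreted protein of the inner ear, was at 1407 to 3857 TPM in FL_WT and 831 to 3175 TPM in GC_WT. Otog, which encodes otogelin of the acellular membranes of the inner ear, was at 33.5 to 90.6 TPM in FL_WT and 16.3 to 64.03 TPM in GC_WT. The hair cell genes Otof and Pou4f3 were detected in every library, with at least 6.27 and 2.56 TPM. Bone and marrow were present too, with osteocalcin (Bglap) at 478 TPM or more and beta-globin (Hbb-bs) at 7445 TPM or more. In such bulk samples, fewer cells of a type and less RNA per cell cannot be told apart.

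The libraries differed in how much other tissue they held. Skeletal muscle genes (82 genes, summed) were at 30469 TPM in FL03, 23724 in FL05, 18553 in FL06, 7699 in FL07, 15312 in FL08 and 18397 in FL10. They were at 28730.0 TPM in GC03, 43964 in GC05, 37978 in GC06, 35468 in GC07, 20258 in GC08 and 16870.3 in GC10. FL07 held the least and GC05 the most, and the groups overlapped. The mean log2 level was 14.1 in FL_WT and 14.8 in GC_WT, a difference of -0.72 against a pooled standard deviation between mice of 0.61.

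Other tissues stood out in single libraries of both groups. A middle ear epithelium list (14 genes, such as Bpifa1 and Foxj1) summed to 28034 TPM in FL03, 32305 in GC06 and 32991 in GC07, and to 147 to 3468 TPM in the other 9 libraries. A salivary gland list was highest in GC06 (1753 TPM), and Lpo, the lactoperoxidase of gland secretions, was at 123 TPM there and at 0.78 to 2.57 TPM in FL_WT. Pituitary genes summed to 15.6 to 706 TPM in FL_WT and 12.8 to 78.9 TPM in GC_WT. Brain genes were at 978 to 2018 TPM in FL07, FL10, GC05, GC07 and GC08 and at 111 to 353 TPM in the rest. Medians of most lists below are also given without FL03, GC06 and GC07, a choice made after the values had been seen.

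**Figure D1:**
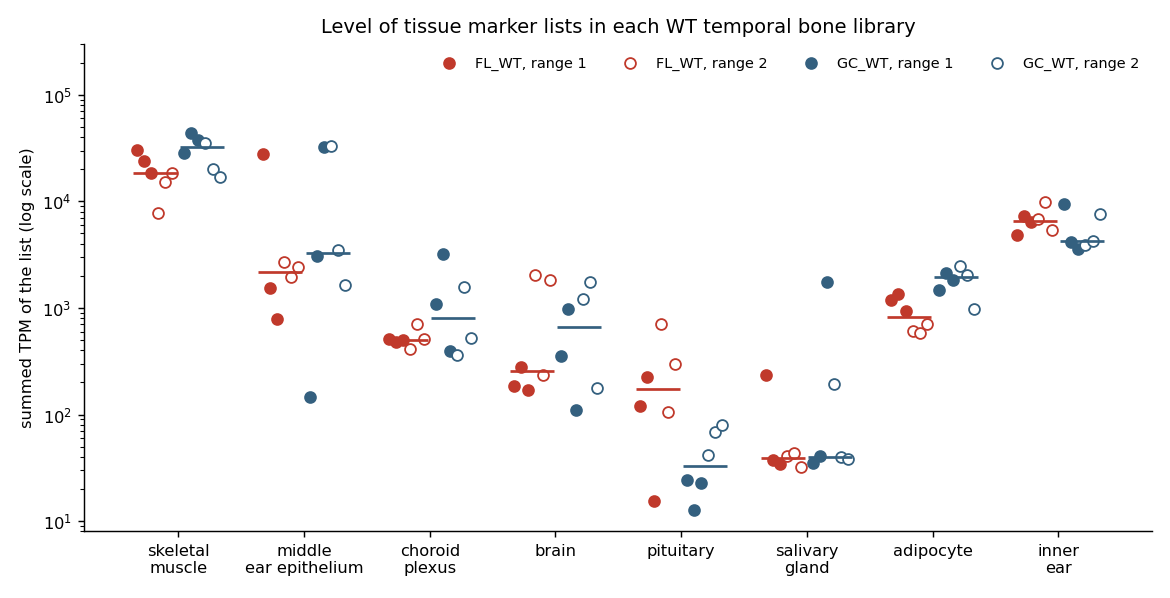
Summed TPM (log axis) of 8 marker lists in each WT temporal bone library. Red points are FL_WT and blue points GC_WT, filled for library number range 1 and open for range 2, and lines are medians over 6 mice. Skeletal muscle genes overlapped between groups, with FL07 lowest and GC05 highest, and the middle ear list was high in FL03, GC06 and GC07.

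Of 18184 genes tested between FL_WT and GC_WT, 0 were called by the quasi-likelihood test of edgeR at an adjusted p under 0.05 (0% of genes), and the smallest adjusted p was 0.798. At an unadjusted p under 0.05 there were 675 genes, 455 lower in FL_WT (2.5% of the genes tested) and 220 higher (1.21%). These shares, and the 46.2% of all genes that were lower, stand beside the main fit counts of every list below. DESeq2 called 7 genes, all lower in FL_WT. They were Ttr, Cyp2e1, Mpc1-ps and the OXPHOS genes Cox4i1, Atp5h, Ndufs3 and Ndufa4. Single genes are therefore given as values with their SE, and those named below as past the unadjusted threshold did not pass the adjusted one in edgeR. Among the 50 genes with the smallest p, 46 were lower in FL_WT and 21 belonged to nuclear OXPHOS. With limma on log2(TPM + 1) the median of all genes tested was 0.19 higher in FL_WT, against 0.01 with edgeR. Fold changes below are log2 values (FL_WT minus GC_WT) from edgeR with their SE unless stated.

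Transthyretin (Ttr), a carrier of thyroid hormone made in large amounts by the choroid plexus of the brain, had the smallest p. It was at 8.38 to 48.4 TPM in FL_WT. In GC_WT it was at 547 TPM in GC03, 2155 in GC05 and 901 in GC08, but at 4.98 TPM in GC06, 13.7 in GC07 and 32.5 in GC10. The ground mice thus split into 3 with high values and 3 with values near those of FL_WT. The fold change was -5.20 ± 1.07, with an adjusted p of 4.36e-06 in DESeq2. Folr1, a folate receptor also made by choroid plexus, was at -2.90 ± 0.69, and Enpp2, which encodes autotaxin and was picked after its value was seen, at -1.99 ± 0.52. A choroid plexus list of 20 genes, written after these values had been seen and given without a test, summed to 409 to 710.3 TPM in FL_WT. It summed to 1082 TPM in GC03, 3219 in GC05 and 1586 in GC08, and to 359 to 518 TPM in the other ground mice. The list includes Ttr, so its sum repeats the split of Ttr in part. On the log2 CPM scale defined below, the median of the list relative to the GC_WT mean was 1.19 in GC05 and 1.04 in GC08. It was 0.03 in GC03, -0.62 in GC06, -0.89 in GC07 and -0.31 in GC10, and -0.87 to -0.27 in FL_WT.

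Most nuclear OXPHOS genes were lower in FL_WT. Of 84 genes tested, 83 were lower, where 46.2% of all genes tested were lower. At an unadjusted p under 0.05, 66 of the 84 were lower and 0 were higher, against the 2.5% and 1.21% of all genes given above. The median fold change was -0.35. The list's median log2 CPM (counts scaled by library size and TMM factor) relative to the GC_WT mean was -0.36 in FL03, -0.21 in FL05, -0.35 in FL06, -0.41 in FL07, -0.50 in FL08 and -0.22 in FL10. It was 0.09 in GC03, 0.06 in GC05, 0.22 in GC06, -0.12 in GC07, -0.13 in GC08 and -0.13 in GC10. The 6 flight mice all lay below the 6 ground mice on this scale. Summed TPM overlapped, at 15201 to 19541 TPM in FL_WT and 17140.5 to 20913 TPM in GC_WT. With limma on log2(TPM + 1) the median of nuclear OXPHOS was -0.17, with 73 of 82 genes lower.

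The shift was spread over the complexes. Complex I, the NADH dehydrogenase, had 37 of 37 genes lower and 28 of them past the unadjusted threshold, with a median of -0.35. Complex II, the succinate dehydrogenase, had 4 of 4 past it, with a median of -0.34. Complex III, which passes electrons to cytochrome c, had 10 of 10 past it, with a median of -0.40. Cytochrome c itself (Cycs) was counted among these 10 genes. Complex IV, the cytochrome c oxidase, had 13 of 14 genes lower and 9 past the threshold, with a median of -0.37. Complex V, the ATP synthase, had 19 of 19 lower and 15 past the threshold, with a median of -0.32. The 1 gene not lower was Cox8a (0.01 ± 0.14), and Cox6a1 was next (0.00 ± 0.13).

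**Figure D2:**
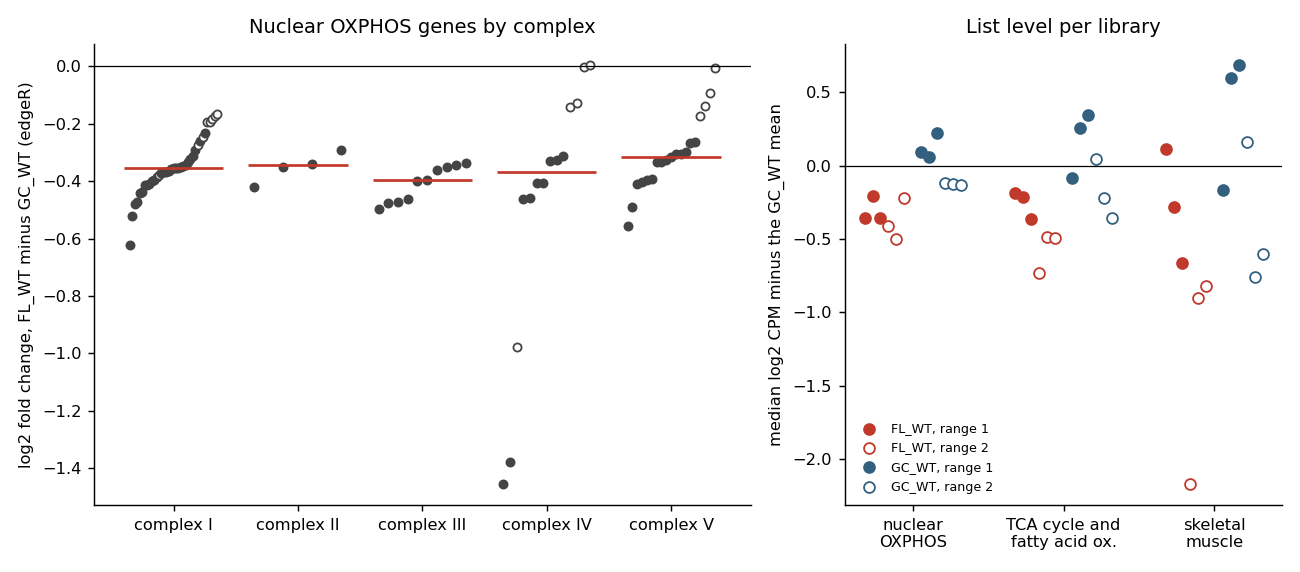
Left, log2 fold change (FL_WT minus GC_WT, edgeR) of each nuclear OXPHOS gene by complex, filled at an unadjusted p under 0.05, with the median as a red line. Right, median log2 CPM of 3 lists minus the GC_WT mean in each mouse (red FL_WT, blue GC_WT, open for range 2). The median of every complex lay below 0, and the 6 flight mice lay below the 6 ground mice for nuclear OXPHOS.

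Values of the leading subunits are given as the lowest, median and highest of 6 mice. Ndufs3, a core subunit of complex I, was at 32.4, 38.1 and 43.6 CPM in FL_WT and 43.1, 52.8 and 57.3 CPM in GC_WT, with a fold change of -0.44 ± 0.09. Its groups overlapped at their edges. Cox4i1, the complex IV subunit isoform of most tissues, was at 234, 255 and 287 CPM in FL_WT and 289.9, 323 and 358 CPM in GC_WT, with no overlap and a fold change of -0.33 ± 0.07. Atp5h of ATP synthase did not overlap either, at 107, 129.8 and 136 CPM in FL_WT and 139.6, 154 and 171 CPM in GC_WT (-0.30 ± 0.07). Ndufa4, first described in complex I and found with complex IV, was at 87.6, 100.1 and 115 CPM in FL_WT and 111, 137 and 148 CPM in GC_WT (-0.40 ± 0.09). Of the 84 genes, 14 did not overlap between groups in CPM with FL_WT lower, where 0.22% of all genes tested did so. To show complexes II and III, Sdha (-0.35 ± 0.10) and Uqcrc2 (-0.40 ± 0.11) were picked after their values were seen. Isoforms used by muscle lay further below 0, with Cox7a1 at -1.46 ± 0.46, Cox8b at -1.38 ± 0.47 and Cox6a2, also picked after its value was seen, at -0.98 ± 0.72.

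The skeletal muscle level was lower in FL_WT too, so the fit was repeated with its log2 as a covariate. The median of nuclear OXPHOS was then -0.30, with 62 of 84 genes lower past the unadjusted threshold, and Cox4i1 was at -0.31. Without FL03, GC06 and GC07 the median was -0.32, with 46 genes. Within range 1 it was -0.43 with 71 genes and within range 2 -0.29 with 17 genes, with 3 mice per group in each. Of all genes, 2.14% were lower past the threshold with the covariate, 1.26% without the named libraries, 4.35% in range 1 and 2.56% in range 2. Leaving out each mouse in turn gave medians of -0.38 to -0.31 with 57 to 69 genes. Over all genes, 297 to 559 were lower past the threshold in these fits.

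Promoters of Ndufs3, Atp5h and Ndufa4, which DESeq2 called, are shown because members of the list moved together and many OXPHOS genes are known targets of NRF1 and of GABP, an ETS factor also called nuclear respiratory factor 2, which is a different protein from the Nrf2 knocked out in this study. The windows are RefSeq sequences on GRCm38.p6, from 250 bases before to 50 after the start site, written 5′ to 3′ on the strand of the gene. Capitals mark CCGGAAG, the ETS core, or an NRF1 pattern, GCGCA and GCGC with 1 base between them, on either strand. Ndufs3 lies at chr2:90904672-90904971 on the minus strand, Atp5h at chr11:115419870-115420169 on the minus strand and Ndufa4, which held neither pattern, at chr6:11907401-11907700 on the minus strand.
Ndufs3: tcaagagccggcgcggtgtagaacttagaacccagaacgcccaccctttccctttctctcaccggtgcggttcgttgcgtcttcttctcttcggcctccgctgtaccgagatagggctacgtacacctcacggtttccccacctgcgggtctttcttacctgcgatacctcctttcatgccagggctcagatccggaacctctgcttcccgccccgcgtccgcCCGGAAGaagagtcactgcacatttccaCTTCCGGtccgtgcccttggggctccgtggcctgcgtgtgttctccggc
Atp5h: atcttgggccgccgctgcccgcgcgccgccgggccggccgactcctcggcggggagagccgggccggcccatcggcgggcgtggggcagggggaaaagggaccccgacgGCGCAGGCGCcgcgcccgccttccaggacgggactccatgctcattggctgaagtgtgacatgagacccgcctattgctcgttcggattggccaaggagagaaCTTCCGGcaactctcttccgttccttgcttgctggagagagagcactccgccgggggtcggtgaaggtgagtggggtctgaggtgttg
Ndufa4: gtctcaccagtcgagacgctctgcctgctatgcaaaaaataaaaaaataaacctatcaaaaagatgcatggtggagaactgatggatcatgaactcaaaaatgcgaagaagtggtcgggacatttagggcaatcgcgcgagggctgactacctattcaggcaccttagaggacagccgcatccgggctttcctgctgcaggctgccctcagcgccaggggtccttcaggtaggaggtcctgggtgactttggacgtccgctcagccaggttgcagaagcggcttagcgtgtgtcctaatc

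Windows were found for 67 of the nuclear OXPHOS genes, some with several start sites. The ETS core was in 16 of their 72 windows (22.2%), against 14.4% of 16443 windows of genes tested and 8.86% of all 32851 windows. The NRF1 pattern was in 19 of the 72 (26.4%), against 8.11% of windows of genes tested and 4.603% of all windows. Genes of the mitochondrial ribosome held the motifs in 35.1% and 17.6% of their 74 windows, with a median fold change of -0.10. A match describes letters and not binding.

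Transcripts of mitochondrial DNA were lower with a wider spread. All 13 coding genes were lower in FL_WT, with a median of -0.39, and 3 were past the unadjusted threshold. These were mt-Atp8 (-0.69 ± 0.24) of ATP synthase and mt-Nd2 (-0.45 ± 0.19) and mt-Nd6 (-0.75 ± 0.29) of complex I. The mitochondrial DNA list summed to 85964 to 111349 TPM in FL_WT and 97457 to 143326 TPM in GC_WT, with overlap. Its median was -0.43 in range 1, -0.40 in range 2 and -0.36 without FL03, GC06 and GC07.

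Enzymes of the TCA cycle and of fatty acid oxidation were lower in 39 of 40 cases, with a median of -0.44. Of the 40, 23 were lower past the unadjusted threshold, against 2.5% of all genes. Among them were Pdhb of pyruvate dehydrogenase (-0.34 ± 0.08), Mpc2 of the mitochondrial pyruvate carrier (-0.50 ± 0.13), Sucla2 of succinyl-CoA synthetase (-0.54 ± 0.16) and Idh3a of isocitrate dehydrogenase (-0.44 ± 0.13). Mpc1-ps, a pseudogene copy of Mpc1, the partner of Mpc2, was at -0.62 ± 0.14, and Mpc1 itself, named after its value was seen, at -0.31 ± 0.13. Reads of such copies may be divided between them by the counting, so both are uncertain. Cpt1a, which lets long-chain fatty acids into mitochondria, was the 1 enzyme that was higher (0.39 ± 0.17). With the muscle covariate the median of the TCA cycle and fatty acid oxidation list was -0.29, and it was -0.48 in range 1, -0.36 in range 2 and -0.37 without FL03, GC06 and GC07. With 1 mouse left out, the 23 genes past the threshold became 11 without GC06 to 29 without GC10. Over all genes, 297 were lower past it without GC06 and 486 without GC10, against 455 in the main fit.

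The rest of the organelle shifted less. Of 77 genes of the mitochondrial ribosome, 69 were lower, with 6 past the unadjusted threshold, against 2.5% of all genes. The mitochondrial ribosome median was -0.17 in range 1, -0.10 in range 2 and -0.10 without FL03, GC06 and GC07. Of 26 genes for regulators of mitochondria, 22 were lower, with a median of -0.11, and Slc25a4, the ADP/ATP carrier of muscle, was at -0.47 ± 0.17. The cytosolic ribosome had a median of -0.04 and 0 of 79 genes past the threshold. With limma on log2(TPM + 1) the medians of these lists turned above 0, at 0.08, 0.05 and 0.17, all under the 0.19 of all genes.

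Skeletal muscle genes were lower in 80 of 81 cases, with a median of -0.73, but the spread between mice was wide. At the unadjusted threshold 6 were lower, against 2.5% of all genes. Myh4, the fastest myosin, was at 172, 622 and 1103 TPM in FL_WT and 394, 1129.8 and 1896 TPM in GC_WT (-1.14 ± 0.91). Acta1, the actin of skeletal muscle, was at 962, 2598 and 4145 TPM in FL_WT and 2097, 3969 and 5604 TPM in GC_WT (-0.79 ± 0.85). Both overlapped, with FL07 lowest among flight mice. Fast-fibre genes had a median of -0.94 (11 genes) and slow-fibre genes -0.43 (8 genes), with the slow myosin Myh7 at -0.30 ± 0.99 and the slow troponin Tnnt1 at -0.55 ± 0.72. Energy genes of muscle had a median of -0.93 (14 genes), with creatine kinase (Ckm) at -0.91 ± 0.88 and myoglobin (Mb) at -1.53 ± 0.81. Cox7a1, a complex IV subunit of muscle and brown fat, did not overlap, at 32.1, 55.7 and 74.7 TPM in FL_WT and 78.2, 140.1 and 185 TPM in GC_WT. Sarcolipin (Sln), a regulator of the calcium pump Atp2a1, was at -2.06 ± 0.80, the pump itself at -0.61 ± 0.81 and Chrne, the adult acetylcholine receptor subunit, at -1.12 ± 0.43. The skeletal muscle median was -0.67 in range 1, -0.88 in range 2 and -0.69 without FL03, GC06 and GC07, and 0.01 with the level of the list itself as a covariate. With 1 mouse left out, the number of skeletal muscle genes past the threshold was 5 to 10 without FL03. Over all genes, 559 were lower past it without FL03, against 455 in the main fit.

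All 17 adipocyte genes were lower in FL_WT, where 46.2% of all genes were, with a median of -1.16. The adipocyte list summed to 579 to 1362 TPM in FL_WT and 973 to 2481 TPM in GC_WT, with overlap. At the unadjusted threshold 6 of the 17 genes were lower, against 2.5% of all genes. In CPM, 3 of them did not overlap between groups with FL_WT lower, where 0.22% of all genes tested did so. Cfd, which encodes adipsin, was at 37.03, 62.9 and 103 TPM in FL_WT and 153, 284 and 483 TPM in GC_WT, with no overlap (-2.33 ± 0.64). Resistin (Retn) did not overlap either, at 1.09, 2.13 and 3.14 TPM in FL_WT and 4.29, 7.88 and 12.6 TPM in GC_WT (-2.14 ± 0.62). The desaturase Scd1 was at 141, 161 and 191 TPM in FL_WT and 199, 212 and 313 TPM in GC_WT, again without overlap (-0.67 ± 0.26). Adiponectin (Adipoq, -1.01 ± 0.57) and perilipin (Plin1, -1.23 ± 0.72) overlapped between groups. Cidea, a lipid droplet gene of brown fat, was at -1.56 ± 0.60. Cyp2e1, a cytochrome P450 known from liver and outside the list, was at 10.2, 20.6 and 34.8 TPM in FL_WT and 37.3, 63.9 and 147 TPM in GC_WT, with no overlap (-1.89 ± 0.43, adjusted p 0.00991 in DESeq2). The adipocyte median was -0.72 in range 1, -1.78 in range 2, -0.98 without FL03, GC06 and GC07, and -0.67 with the muscle covariate.

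**Figure D3:**
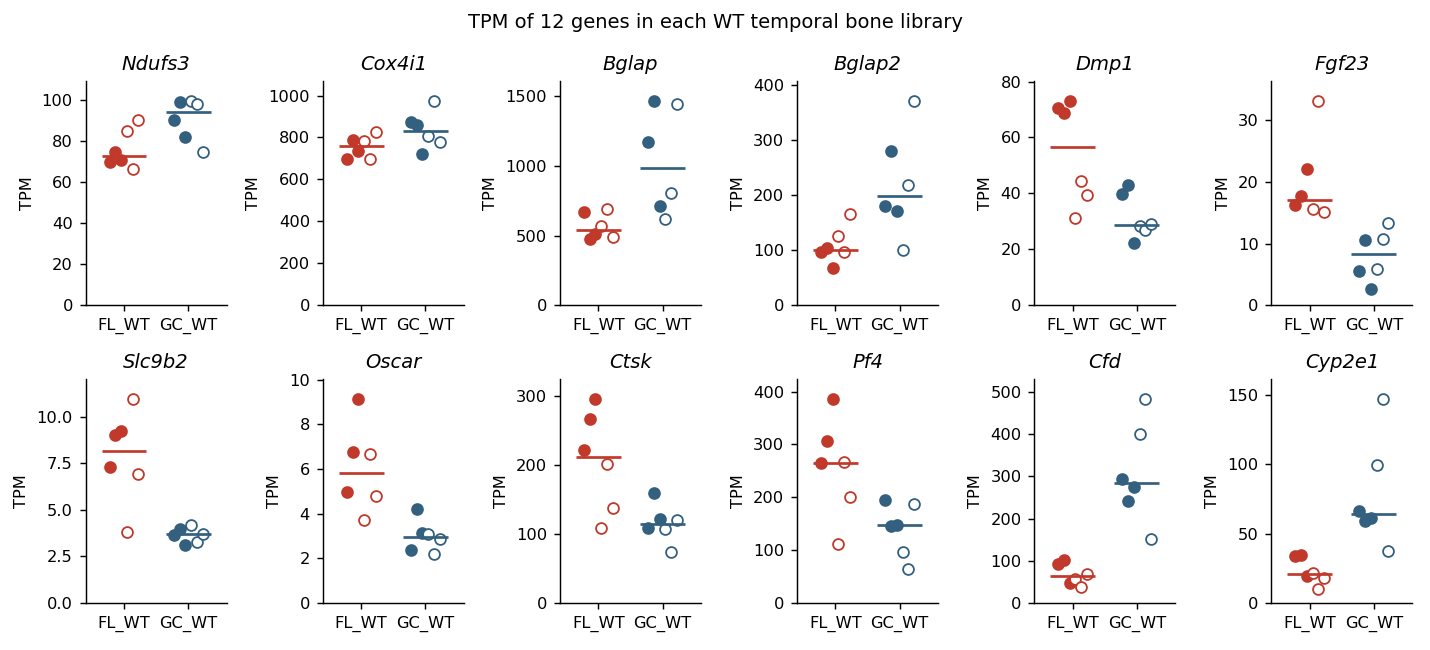
TPM of 12 genes in each WT temporal bone mouse (red FL_WT, blue GC_WT, filled for library number range 1, open for range 2), with lines at the medians of 6 mice. Fgf23, Cfd and Cyp2e1 did not overlap between groups in TPM, while the other 9 genes did.

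In bone, osteoblast genes did not share a direction. Of 28 genes, 19 were above 0 and 9 below, with a median of 0.14 (with 1 mouse left out, 0.04 without FL08 to 0.22 without GC10), and Sp7, Bglap and Bglap2 were past the unadjusted threshold. Osteocalcin is a small secreted protein of mature osteoblasts, and its gene Bglap was at 478, 541 and 693 TPM in FL_WT and 619, 988 and 1464 TPM in GC_WT (-1.06 ± 0.27). GC06 and GC07 were the lowest ground mice for Bglap, at 714 and 619 TPM, and GC07 lay within the range of FL_WT. Its copy Bglap2 was at 67.4, 100.3 and 165 TPM in FL_WT and 99.99, 199 and 370.2 TPM in GC_WT (-1.21 ± 0.30). The osteocalcin genes are near-identical copies and reads may be divided among them, so they were also summed. The sum over Bglap, Bglap2 and Bglap3 was 585 to 801 TPM in FL_WT and 721 to 1820 TPM in GC_WT, with overlap. The fold change of Bglap was -1.23 in range 1, -0.91 in range 2, -0.997 with the muscle covariate and -1.33 without FL03, GC06 and GC07.

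Other osteoblast genes lay on either side of 0, and the osteoblast median was 0.05 in range 1, 0.16 in range 2 and 0.04 without FL03, GC06 and GC07. Sp7 (osterix), a transcription factor that osteoblasts need, was at 17.6, 20.3 and 36.97 TPM in FL_WT and 10.9, 11.9 and 18.3 TPM in GC_WT (0.54 ± 0.25). Runx2, the master regulator of the lineage, was at 0.38 ± 0.29, and alkaline phosphatase (Alpl), which frees phosphate for mineral, at 0.37 ± 0.22. Type I collagen (Col1a1), the main matrix protein, was at -0.24 ± 0.31 and bone sialoprotein (Ibsp) at 0.30 ± 0.31. The promoter of Bglap is shown because osteocalcin is a textbook target of Runx2. Capitals mark ACCACA, the core of RUNX sites, searched on both strands and present in 4 of 24 windows of osteoblast genes (16.7%), against 13.03% of windows of genes tested and 16.8% of all windows. The window is from RefSeq on GRCm38.p6 at chr3:88384417-88384716 on the minus strand.
Bglap: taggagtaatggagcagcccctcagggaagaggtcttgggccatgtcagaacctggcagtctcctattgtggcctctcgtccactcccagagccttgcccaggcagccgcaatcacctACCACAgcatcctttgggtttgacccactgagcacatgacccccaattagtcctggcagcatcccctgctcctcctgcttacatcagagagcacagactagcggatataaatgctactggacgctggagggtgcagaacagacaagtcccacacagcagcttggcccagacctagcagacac

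Osteocyte genes lay above 0 in 12 of 12 cases, with a median of 0.31, and Fgf23 and Mepe were past the unadjusted threshold. Of all genes, 1.21% were higher past it. Fgf23, the hormone that makes the kidney excrete phosphate, was at 15.1, 17.01 and 33.03 TPM in FL_WT and 2.66, 8.22 and 13.3 TPM in GC_WT (1.15 ± 0.43). The groups did not overlap in TPM but did in CPM. Mepe, a matrix protein tied to mineral, was at 18.1, 31.1 and 50.6 TPM in FL_WT and 8.54, 12.5 and 23.9 TPM in GC_WT (0.81 ± 0.36). Dmp1, another mineral-binding matrix protein of osteocytes, was at 31.1, 56.6 and 72.9 TPM in FL_WT and 22.4, 28.7 and 43.02 TPM in GC_WT (0.62 ± 0.32). Dmp1 was highest in FL03, FL05 and FL06, all of range 1, and its fold change was 0.79 in range 1 and 0.29 in range 2. Sclerostin (Sost), the osteocyte inhibitor of bone formation that load represses, was at 10.2, 20.04 and 30.5 TPM in FL_WT and 8.75, 12.9 and 19.7 TPM in GC_WT (0.32 ± 0.31). The osteocyte median was 0.43 in range 1, 0.29 in range 2 and 0.31 without FL03, GC06 and GC07, and with 1 mouse left out the number of osteocyte genes past the threshold was 1 (without FL03, FL05, FL06, GC06, GC07 or GC08) to 4 (without FL07 or GC05). Over all genes, 122 to 340 were higher past it with 1 mouse left out.

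Osteoclast genes were above 0 in 18 of 19 cases, with a median of 0.46, and 5 were past the unadjusted threshold, against the 1.21% of all genes that were higher. Oscar, a collagen receptor that promotes osteoclast formation, was at 3.73, 5.84 and 9.13 TPM in FL_WT and 2.17, 2.96 and 4.21 TPM in GC_WT (0.82 ± 0.23). Cathepsin K (Ctsk), the protease that degrades bone collagen, was at 109, 212 and 296 TPM in FL_WT and 73.6, 114 and 159 TPM in GC_WT (0.64 ± 0.27). FL07 was the lowest flight mouse for both and lay within the ground range. The others past the threshold were Atp6v0d2, a proton pump subunit (0.87 ± 0.36), Clcn7, the chloride exchanger of the acid compartment (0.20 ± 0.08), and Ocstamp, a membrane protein needed for fusion of osteoclasts (1.15 ± 0.37), which reached at most 1.86 TPM. Tartrate-resistant acid phosphatase (Acp5) was at 102, 232 and 321 TPM in FL_WT and 84.8, 146 and 188 TPM in GC_WT (0.46 ± 0.30). Carbonic anhydrase 2 (Car2), which osteoclasts share with red cells, was the 1 gene below 0 (-0.27 ± 0.36), though not on the TPM scale. The osteoclast median was 0.57 in range 1 with 11 genes past the threshold, 0.24 in range 2 with 1, and 0.47 without FL03, GC06 and GC07 with 3. Of all genes, 2.81%, 0.472% and 0.697% were higher past the threshold in these 3 fits. Leaving out 1 mouse gave osteoclast medians of 0.31 without FL06 to 0.61 without FL07, and the number of osteoclast genes past the threshold was 2 without GC08 to 9 without FL07. Over all genes, 200 were higher past it without GC08 and 340 without FL07, against 220 in the main fit.

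Slc9b2, a sodium/proton exchanger known from osteoclasts and outside the list, had the smallest p of the genes that were higher in FL_WT. It was at 7.31 TPM in FL03, 9.03 in FL05, 9.24 in FL06, 3.81 in FL07, 10.96 in FL08 and 6.95 in FL10. In GC_WT it was at 3.14 to 4.21 TPM. FL07 alone lay within the ground range, and the fold change was 0.92 ± 0.22, with 0.99 in range 1 and 0.81 in range 2. After Slc9b2 and Oscar, the genes with the smallest p at a mean of at least 5 TPM included Fbxl20, Lamc3, Lrrc32, Maml2 and Arsb. Lamc3, a laminin chain, was at 6.21, 6.98 and 11.2 TPM in FL_WT and 3.54, 4.86 and 5.67 TPM in GC_WT (0.49 ± 0.15). The groups did not overlap in TPM, a scale on which the median of all genes was 0.19 higher in FL_WT with limma on log2(TPM + 1). Lrrc32, which anchors latent TGF-beta on cells, was at 0.62 ± 0.19. Fbxl20 (0.22 ± 0.06), Maml2 (0.28 ± 0.09) and Arsb (0.31 ± 0.10) differed by less.

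Signals and matrix of bone lay slightly above 0. Of 42 genes of bone signalling, 36 were above 0, with a median of 0.17 (0.02 in range 1, 0.23 in range 2 and 0.10 without FL03, GC06 and GC07), and of 0.06 without FL08. Lrp4, a receptor that presents sclerostin (0.35 ± 0.15), and Sfrp4, a secreted Wnt inhibitor (0.64 ± 0.30), were past the unadjusted threshold. Of 43 collagen and matrix genes, 30 were above 0, with a median of 0.10 (0.08 in range 1, 0.09 in range 2 and 0.01 without FL03, GC06 and GC07), and of 0.01 without FL08. Tenascin C (Tnc, 0.65 ± 0.30), collagen XII (Col12a1, 0.52 ± 0.24) and thrombospondin 2 (Thbs2, 0.45 ± 0.21), matrix proteins of connective tissue, were past the threshold. Of 16 cartilage genes, 10 were above 0, with a median of 0.08 (-0.06 in range 1, 0.31 in range 2 and -0.14 without FL03, GC06 and GC07). With 1 mouse left out the cartilage median was -0.03 without GC07 to 0.18 without GC03.

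**Figure D4:**
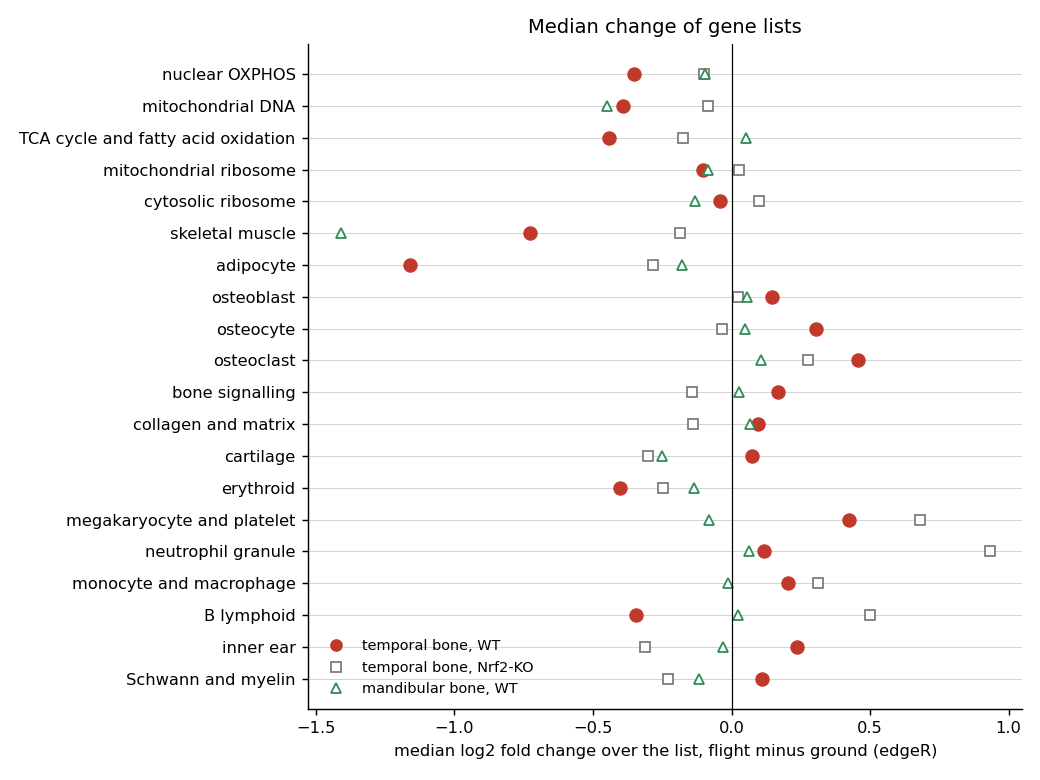
Median log2 fold change (flight minus ground, edgeR) of 20 gene lists in temporal bone of WT mice (red, 6 against 6 mice) and Nrf2-KO mice (grey squares, 5 against 6), and in mandibular bone of WT mice (green triangles, 3 against 3). In WT temporal bone the adipocyte, skeletal muscle and OXPHOS medians lay below 0 and the osteoclast, platelet and osteocyte medians above 0.

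Marrow lineages went in different directions, and few single genes stood out. Megakaryocyte and platelet genes were above 0 in 48 of 54 cases, with a median of 0.42, and 0 were past the unadjusted threshold. Platelet factor 4 (Pf4), a chemokine of platelet granules, was at 112, 266 and 386 TPM in FL_WT and 63.5, 147 and 195 TPM in GC_WT (0.67 ± 0.40). Ppbp, another platelet chemokine (0.72 ± 0.48), the platelet integrin Itga2b (0.61 ± 0.41) and the von Willebrand receptor Gp1ba (0.80 ± 0.49) had similar values. Vwf, made by megakaryocytes and endothelium, was at 15.98, 30.7 and 43.9 TPM in FL_WT and 15.04, 18.1 and 22.9 TPM in GC_WT (0.54 ± 0.27). In range 1 the median of the megakaryocyte and platelet list was 0.59 with 33 genes higher past the threshold, where 2.81% of all genes were. In range 2 it was 0.08 with 0 genes, where 0.472% of all genes were. Without FL03, GC06 and GC07 it was 0.34, and with 1 mouse left out 0.26 without FL06 to 0.57 without FL07. In range 2 Tubb1, the tubulin of platelets, was at -0.21. The list summed to 2738 TPM in FL07, 3224 in FL10 and 4552 to 5447 TPM in the other flight mice, against 2258 to 3656 TPM in GC_WT.

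Erythroid genes were below 0 in 39 of 41 cases, with a median of -0.40, and their spread in GC_WT was wide. They summed to 26445 to 68886 TPM in FL_WT and 30331 to 111307 TPM in GC_WT. Hbb-bs was at 7445, 16629 and 19685 TPM in FL_WT and 8852, 18299 and 30941 TPM in GC_WT (-0.63 ± 0.47). Alas2, the first enzyme of erythroid haem synthesis (-0.67 ± 0.45), and the band 3 anion exchanger Slc4a1 (-0.76 ± 0.48) overlapped too. Tmcc2, a membrane gene of red cells, was the 1 past the unadjusted threshold, at 124, 146 and 150.4 TPM in FL_WT and 131, 174 and 235 TPM in GC_WT (-0.53 ± 0.18). With limma on log2(TPM + 1) the erythroid median was -0.07, with 25 of 41 genes below 0. In edgeR it was -0.28 in range 1, -0.57 in range 2 and -0.43 without FL03, GC06 and GC07, and with 1 mouse left out -0.58 without GC08 to -0.17 without GC10.

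Neutrophil granule genes had a median of 0.12, with 32 of 36 above 0 and 0 past the unadjusted threshold, and with 1 mouse left out the median was -0.04 without GC08 to 0.36 without GC06, so that its sign turned. Elane, the neutrophil elastase (0.42 ± 0.49), and Mpo, the myeloperoxidase (0.31 ± 0.52), were below 0 in range 2, where the median of the neutrophil granule list was -0.13, against 0.23 in range 1. B lymphoid genes were below 0 in 23 of 30 cases, with a median of -0.35 (-0.35 in range 1, -0.57 in range 2 and -0.27 without FL03, GC06 and GC07). With 1 mouse left out the B lymphoid median was -0.54 without GC08 to -0.22 without GC06. The recombinase genes Rag1 (-0.82 ± 0.38) and Rag2 (-1.01 ± 0.43) of B cell precursors were past the threshold, at levels of at most 2.35 and 1.94 TPM. Of all genes, 2.5% were lower past it. Monocyte and macrophage genes had a median of 0.20, with 17 of 20 above 0, and summed to 6347 to 7201 TPM in FL03, GC06 and GC07 and 841 to 2350.2 TPM in the rest. FL03, GC06 and GC07 were also the libraries high for the middle ear epithelium list. The sum did not follow most members of the monocyte and macrophage list. Its median log2 CPM relative to the GC_WT mean was -0.25 in GC07 and 0.63 in FL08, which summed to 2210 TPM. Of 32 interferon stimulated genes, Ifi27l2a alone was past the threshold, at 101, 116 and 183 TPM in FL_WT and 159, 195 and 588 TPM in GC_WT (-1.20 ± 0.35), with GC03 highest.

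Genes of the inner ear were above 0 in 47 of 52 cases, with a median of 0.24, and 0 were higher past the unadjusted threshold. Their sum was 4802 to 9939 TPM in FL_WT and 3550.2 to 9361 TPM in GC_WT, highest in FL08 and in GC03. The inner ear median was 0.00 in range 1, 0.46 in range 2 and 0.09 without FL03, GC06 and GC07, and with 1 mouse left out 0.07 without FL08 to 0.52 without GC03. Car3, a carbonic anhydrase that muscle and fat also make, was the 1 gene of the list that was lower past the threshold (-0.57 ± 0.27).

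Targets of Nrf2, the stress factor whose knockout the study used, lay on either side of 0 in edgeR in WT temporal bone. Of 27 genes, 10 were above and 17 below 0, with a median of -0.02, and with limma on log2(TPM + 1) the median was 0.17 with 4 of 27 genes below 0, against 0.19 over all genes on that scale. In edgeR the median of the Nrf2 targets was -0.02 in range 1, -0.03 in range 2 and -0.03 without FL03, GC06 and GC07. Catalase (Cat, -0.41 ± 0.17) and malic enzyme (Me1, -0.28 ± 0.12) were past the unadjusted threshold, both below 0. Haem oxygenase (Hmox1) was at 28.4, 91.3 and 97.3 TPM in FL_WT and 23.5, 39.1 and 62.3 TPM in GC_WT (0.65 ± 0.46). In the heat shock, clock, glucocorticoid response, unfolded protein response, immediate early, p53 target and cell cycle lists 0 genes were past the threshold in either direction, and the medians lay between -0.11 and 0.06, and all above 0 with limma on log2(TPM + 1). In edgeR, 19 of 20 heat shock, 16 of 20 glucocorticoid response and 14 of 20 clock genes were below 0. So were 12 of 20 p53 target, 19 of 36 cell cycle, 9 of 23 unfolded protein response and 6 of 20 immediate early genes. Of all genes, 46.2% were below 0.

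The comparison of flight and ground in Nrf2-KO mice, which shares no mice with that in WT, is given side by side. Nuclear OXPHOS had a median of -0.10 with 68 of 84 genes below 0, where 43.7% of all genes were below 0, and 0 were past the unadjusted threshold. The adipocyte median was -0.28, the osteoclast median 0.27 and the osteocyte median -0.03. The megakaryocyte and platelet median was 0.68, with 20 of 54 genes higher past the threshold, and the neutrophil granule median 0.93, with 9 of 36, where 1.51% of all genes were. Bglap was at -0.62 and Slc9b2 at 0.23. Of the 455 genes lower in WT past the threshold, 371 were below 0 in Nrf2-KO mice (81.5%), 30 of them past the threshold, where 1.17% of all genes were lower past it. Of the 220 genes higher in WT, 132 were above 0 in Nrf2-KO mice (60%), and 14 of them were past the threshold. Of all genes, 1.51% were higher past it there, and most were above 0 too, with 43.7% below 0. Interaction tests of flight and genotype called 0 genes in edgeR, with 321 at an unadjusted p under 0.05, and 3 in DESeq2, the pituitary hormone genes Gh, Prl and Cga. The pituitary list had a median of 2.39 in WT and -5.87 in Nrf2-KO mice. Its sum varied widely between WT libraries, from 12.8 TPM in GC05 to 706 TPM in FL07. Whether dissection left pituitary tissue in some libraries was not tested. Differences of the lists between genotypes were not tested.

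In WT mandibular bone, with 3 mice per group, nuclear OXPHOS had a median of -0.09 with 62 of 84 genes below 0. Of all genes, 51.5% were below 0 there. At the unadjusted threshold 4 of the 84 were lower, where 4.28% of all genes were. The mitochondrial DNA list had a median of -0.45, with 13 of 13 genes below 0 and 8 lower past the threshold. The TCA cycle and fatty acid oxidation list had a median of 0.05, with 15 of 39 genes below 0. Of its genes, 0 were lower and 6 higher past the threshold, where 719 of 16361 genes were higher. Skeletal muscle genes had a median of -1.41 there, with 42 of 65 lower past the unadjusted threshold, where 4.28% of all genes were. The osteoclast median was 0.11 and the adipocyte median -0.18. Bglap was at -0.12. Dmp1 was at 1.47, but the osteocyte list had a median of 0.05 there, with 3 of 9 genes below 0.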

How the data were processed

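RNA was measured in temporal bone of 6 FL_WT and 6 GC_WT mice, as single reads of poly(A) RNA. By the submitters' processing notes, reads were mapped with STAR 2.6.1 to mm10 and quantified with RSEM 1.3.1. The table deposited by the authors holds, for each gene, expected counts that RSEM estimated and that carry no normalization. It also holds the TPM of each gene, deposited in the form RSEM writes it. A further 192 columns of FPKM were not used. The strand setting of the counting is not given in the sources used here.

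Expected counts were rounded, scaled by TMM and filtered by filterByExpr by group. The quasi-likelihood test of edgeR 4.0.16 (R 4.3.3) was fitted to all 4 TpB groups without FL04, which the study left out, and p-values were adjusted over all genes by the Benjamini-Hochberg method. SE is the absolute log2 fold change over the square root of F. CPM used TMM factors. The fit was repeated with RLE factors, no filter, FL04 included, WT libraries alone, the mouse number as a replicate block, the library number range as a covariate or each range alone, the muscle level as a covariate, and each mouse left out. Other tools were DESeq2 1.42.0 on the counts and limma 3.58.1 on log2(TPM + 1) or log2(TPM + 0.1). The count, limma and DESeq2 steps were tested on simulated data.

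Members and lists were chosen with earlier results of these data known, so lists are described by counts and medians. Genes were named when called by edgeR or DESeq2, when among the 8 with the smallest p in each direction at a mean of at least 5 TPM, or when an anchor of a list or among its 4 members with the smallest p. Some genes that meet this rule are not reported here.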

Additional observations from a re-analysis of the deposited data

Results flagged for a closer look

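In each group of 6 mice, the summed TPM of each list was checked for a mouse whose gap to the next was large against the range of the group on the log2 scale, by the 95% limit of Dixon's test. Of 92 groups checked, 6 were beyond it, where chance puts about 1 in 20 beyond it. FL03 stood apart in FL_WT for the middle ear epithelium list, at 28034 TPM against 791 to 2680 TPM in the other flight mice, and for the salivary gland list, at 236 TPM against 32.1 to 43.4 TPM. GC06 was low for bone signalling genes, at 1034 TPM against 1326 to 1484 TPM in the other ground mice. GC03 was high for interferon stimulated genes, at 1566 TPM against 544 to 794 TPM. FL08 was high for endothelial genes, at 826 TPM against 587 to 651 TPM. FL10 was high for regulators of mitochondria, at 3582 TPM against 3244 to 3289.7 TPM.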

How the results depend on the processing

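With edgeR and limma, 0 genes were called between FL_WT and GC_WT under every alternative run, with each mouse left out included (0 to 0 genes). DESeq2 called 7 genes, and called 6 between FL_KO and GC_KO and 3 for the interaction, where edgeR called 0. The 675 genes at an unadjusted p under 0.05 became 1263 with no filter, 1241 in range 1 alone, 357 without FL03, GC06 and GC07, and 467 to 775 with each mouse left out. With limma they were 2135 on log2(TPM + 1), 2045 higher and 90 lower, and 2137 on log2(TPM + 0.1), 2049 higher and 88 lower, against 220 higher and 455 lower in edgeR, and the median of all genes was 0.19 and 0.20 there. With WT libraries alone they were 839, with FL04 included 694 and with RLE factors 681. The cause of these differences was not tested.

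With the mouse number as a replicate block, 662 genes had an unadjusted p under 0.05 (137 higher, 525 lower) and 0 were called. Same-numbered mice are different animals, the correlations of their deviations ran from -0.48 to 0.57, 2 of 6 were above 0.1 and 0 of 6 mice correlated best with their own number, so the numbers do not pair the mice.

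The skeletal muscle difference of -0.72 ran from -0.88 to -0.48 with each mouse left out, and was -0.48 without FL07. Among single genes, 16 values changed sign. With the muscle covariate, Acta1 was at 0.30, Tnnt3 at 0.15, Atp2a1 at 0.41, Ckm at 0.19, Myh7 at 0.71 and Tnnt1 at 0.0079. That covariate is the summed level of the skeletal muscle list, to which such genes contribute. The fit therefore cannot separate their flight difference from the level of the list. In range 2 alone, Ibsp was at -0.12, Tubb1 at -0.21, Elane at -0.066, Mpo at -0.30 and Lpo at 0.66. Lpo ran from -4.43 to 0.25 with each mouse left out, was at 0.25 without GC06 and at 0.23 without FL03, GC06 and GC07. Car2 was at 0.0491 with limma on log2(TPM + 1) and 0.0493 on log2(TPM + 0.1), and Col1a1 at 0.00064 with the choroid plexus level as a covariate, which was chosen after seeing the data. Depth was similar in all 12 libraries, and 6 mice per group limit the precision.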
